A study of Mus musculus with 12 samples.

Results

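Zbtb20 and 7 other transcription factors known for giving hippocampal neurons their identity were followed through the hippocampus of APP/PS1 mice. The 8 genes are Zbtb20, Prox1, Neurod1, Neurod2, Neurod6, Bcl11b, Emx2 and Lhx2, out of 44760 genes present in both deposited count tables. They were taken by name, because Zbtb20 differed widely between the table of 18-month mice and the table of 7-month mice while the other factors served as its setting. Differences of these 8 genes between the ages therefore describe how they were chosen and are given without a test. Nicotine against saline was tested. All 8 genes passed the filter on low counts in every comparison.

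The mice were males of the APPswe/PS1dE9 line on a C57BL/6 background, which carries a Swedish-mutant amyloid precursor protein and a presenilin 1 lacking exon 9 and forms plaques in the brain. All 12 libraries came from transgenic animals, so no group shows the non-transgenic hippocampus. The groups were nicotine at 18 months, saline at 18 months, nicotine at 7 months and saline at 7 months, with 3 libraries each. Nicotine hydrogen tartrate, labelled 48 mg/kg/h, or saline was delivered for 14 days by a pump under the skin. The labels do not say whether replicates were separate animals, so p-values measure the spread between these libraries, which may be technical. All 18-month libraries are in 1 table and all 7-month libraries in another, so age and the making of the tables cannot be told apart.

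Hippocampal neurons acquire their fate from a small set of transcription factors. Zbtb20 is a BTB zinc finger repressor that, in the mouse, is needed for hippocampal CA1 fate and holds back genes of the neighbouring cortex, and it is also present in astrocytes. Prox1, a homeodomain factor, marks and maintains dentate granule cells. Neurod1, Neurod2 and Neurod6 are basic helix-loop-helix activators that bind E-boxes and drive granule and pyramidal neurons to mature. Bcl11b, also called Ctip2, is a zinc finger factor of granule cells and CA1 neurons, while Emx2 and Lhx2 are homeodomain factors that pattern the developing cortex and hippocampus.

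The 18-month libraries held between 21260068 and 23715015 counts each, and the 7-month libraries between 25071195 and 29245972. Levels below are CPM, counts scaled to a common library size, on 1 scale for all 12 libraries. All 14 dentate granule cell genes, all 8 CA1 genes and all 10 CA3 and CA2 genes looked at passed the filter in every comparison. In each comparison 7 of 8 thalamus genes passed as well, so passing the filter does not identify the tissue. Transcripts over 5000 nt took 36.0% to 36.9% of the counts at 18 months. They took 32.5% in 7-month saline library 2 and 23.2% to 24.1% in the other 7-month libraries. The summed choroid plexus and pituitary markers were highest in 7-month nicotine library 1, at 6160 and 108 CPM. Choroid plexus sums of the other libraries were 20.4 to 1519 CPM at 18 months and 57.8 to 1623 CPM at 7 months, and pituitary sums were 1.04 to 2.67 CPM.

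Sequence is shown for the loci on which the results turn. Inside the last exon of Zbtb20 lies the microRNA gene Mir568, which separates the counts of host and microRNA below and was chosen after its values were seen. The mature mmu-miR-568, from RefSeq on GRCm38.p6 at chr16:43640665-43640684 on the plus strand, is shown 5′ to 3′ with its seed, bases 2 to 8, in capitals. Of 1738 mature mouse microRNAs in the table, no other shares this seed.
mmu-miR-568: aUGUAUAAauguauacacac

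Promoter windows from RefSeq on GRCm38.p6 run from 250 bases before to 50 after the annotated start, and all 8 genes matched. Those shown are of Zbtb20 and Prox1, which differed most between the ages, and of Emx2, whose nicotine and saline libraries separated at both ages. Capitals mark the E-box CANNTG, the site type bound by NeuroD factors, which reads the same on both strands. RefSeq gives Prox1 a further window, at chr1:190169466-190169765, which is not printed. Zbtb20 is at chr16:43247034-43247333 on the plus strand, the Prox1 window shown at chr1:190170778-190171077 on the minus strand and Emx2 at chr19:59458440-59458739 on the plus strand. The Zbtb20 window lies within the gene, which is annotated from chr16:42875881, so it need not be the promoter of the longest transcript. The Emx2 window likewise lies within its gene, which is annotated from chr19:59458372.
Zbtb20: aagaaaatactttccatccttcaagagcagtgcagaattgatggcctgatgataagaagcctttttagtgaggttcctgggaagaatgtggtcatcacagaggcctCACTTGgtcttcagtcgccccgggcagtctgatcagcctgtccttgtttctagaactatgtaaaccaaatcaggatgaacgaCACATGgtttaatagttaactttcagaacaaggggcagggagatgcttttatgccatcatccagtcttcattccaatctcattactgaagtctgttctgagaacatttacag
Prox1: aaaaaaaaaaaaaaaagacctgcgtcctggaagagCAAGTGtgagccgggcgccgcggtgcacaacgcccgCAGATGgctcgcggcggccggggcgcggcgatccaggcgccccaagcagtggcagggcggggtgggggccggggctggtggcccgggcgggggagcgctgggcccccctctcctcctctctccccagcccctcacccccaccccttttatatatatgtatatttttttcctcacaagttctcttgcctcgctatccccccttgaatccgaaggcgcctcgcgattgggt
Emx2: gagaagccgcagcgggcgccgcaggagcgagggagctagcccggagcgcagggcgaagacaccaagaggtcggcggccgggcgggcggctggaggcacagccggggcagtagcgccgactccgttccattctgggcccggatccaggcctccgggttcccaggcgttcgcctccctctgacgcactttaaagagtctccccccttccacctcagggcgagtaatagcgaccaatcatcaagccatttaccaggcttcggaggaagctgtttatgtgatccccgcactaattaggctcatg
The Zbtb20 window and the Prox1 window shown each held 2 E-boxes, while the other Prox1 window and the Emx2 window held 0. Across all 32817 windows, 72.3% held at least 1. The NeuroD-preferred form CAGATG, searched on both strands and itself a kind of CANNTG, was in the Prox1 window shown, not in the other Prox1 window, and in 17.2% of all windows. CG dinucleotides numbered 3 in the Zbtb20 window, 25 in the Prox1 window shown, 14 in the other Prox1 window and 26 in that of Emx2, where the median window had 7.

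Zbtb20 was far more abundant in the 18-month libraries. Nicotine libraries had 114, 109 and 129 CPM at 18 months, against 3.70, 3.29 and 4.03 CPM at 7 months. Saline libraries had 111, 109 and 119 CPM at 18 months, against 3.39, 3.22 and 6.39 CPM at 7 months. Every 18-month library lay above every 7-month library, with nothing in between. The difference was 31.9-fold under nicotine, a log2 value of 5.0, and 26.1-fold under saline, a log2 value of 4.71. Counted down from the largest increase at 18 months, the nicotine value ranked 169 and the saline value 122 among 19171 genes tested. Among all genes 29.5% were called higher and 29.8% lower at 18 months under nicotine, and 21.5% higher and 24.6% lower under saline (edgeR, adjusted p under 0.05).

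**Figure D1:**
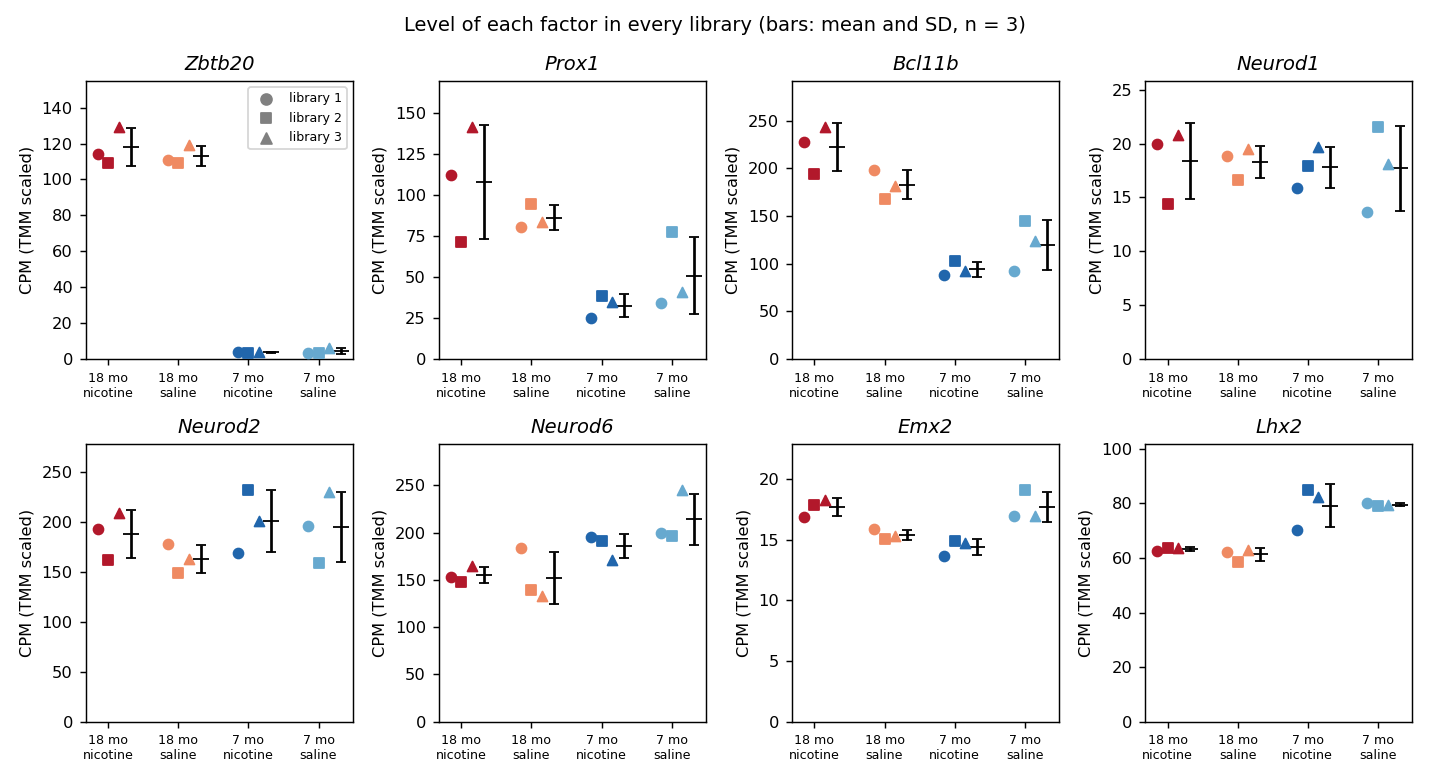
Level of each of the 8 transcription factors in every library, in CPM after TMM scaling, for nicotine and saline at 18 months and at 7 months; points are libraries, and bars are the mean with the SD (n = 3). Zbtb20 sits at 109 to 129 CPM in all 18-month libraries and at 3.22 to 6.39 CPM in all 7-month libraries, whereas Neurod1, Neurod2, Emx2 and Lhx2 vary far less across the groups.

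The counts behind these levels were small at 7 months. Zbtb20 had 107, 82 and 104 counts in the 7-month nicotine libraries and 100, 83 and 171 in the 7-month saline libraries, against 2346 to 2736 at 18 months. Counting error therefore weighs more at 7 months. The highest 7-month value, in saline library 3, fell in a library with 62.9 CPM of the small nuclear RNA Rn7sk. Rn7sk had 36.6 CPM in nicotine library 3, 1.32 to 2.25 CPM in the other 7-month libraries and 158 to 250 CPM at 18 months. Its part in the Zbtb20 level was not tested. Without saline library 3 the log2 age difference under saline was 5.10.

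Mir568 gave a different picture from the gene that surrounds it. Its 83 nt lie at chr16:43640655-43640737 on the plus strand (GRCm38), inside exon 15 of the transcript Zbtb20-204, with 22332 nt of the exon before it and 1865 after it. That transcript is 26901 nt long and its last exon 24280 nt. Of the 21 annotated Zbtb20 transcripts the next longest has 3086 nt.

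Mir568 had 125, 89 and 132 counts in the 18-month nicotine libraries and 104, 120 and 106 in the 7-month nicotine libraries. The saline libraries had 106, 97 and 103 counts at 18 months and 118, 176 and 130 at 7 months. Under nicotine the ages overlapped, and under saline the 18-month counts lay below the 7-month counts. In CPM, which allows for depth, the ages overlapped under both infusions. Zbtb20 gave 20.7 to 26.4 counts per Mir568 count at 18 months and 0.472 to 1.32 at 7 months. On the log2 scale the age difference of Mir568 was 0.33 under nicotine and -0.19 under saline.

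Compared in the same way, 34 other pairs of a microRNA and the host whose exon holds it on the same strand had host-minus-microRNA age differences, as log2 values, of -6.57 to 1.03 under nicotine (median -0.46). Under saline they ran from -6.88 to 0.72 (median -0.38). Zbtb20 minus Mir568 was 4.67 under nicotine and 4.89 under saline. Zbtb20 was chosen for its age difference and Mir568 after its values were seen, so the place of this pair against the others is a description that the choice fixes. How reads on overlapping genes were assigned, and whether strand was used, is not given in the sources used here, so reads of Mir568 and Zbtb20 may be split by a rule that is unknown.

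**Figure D2:**
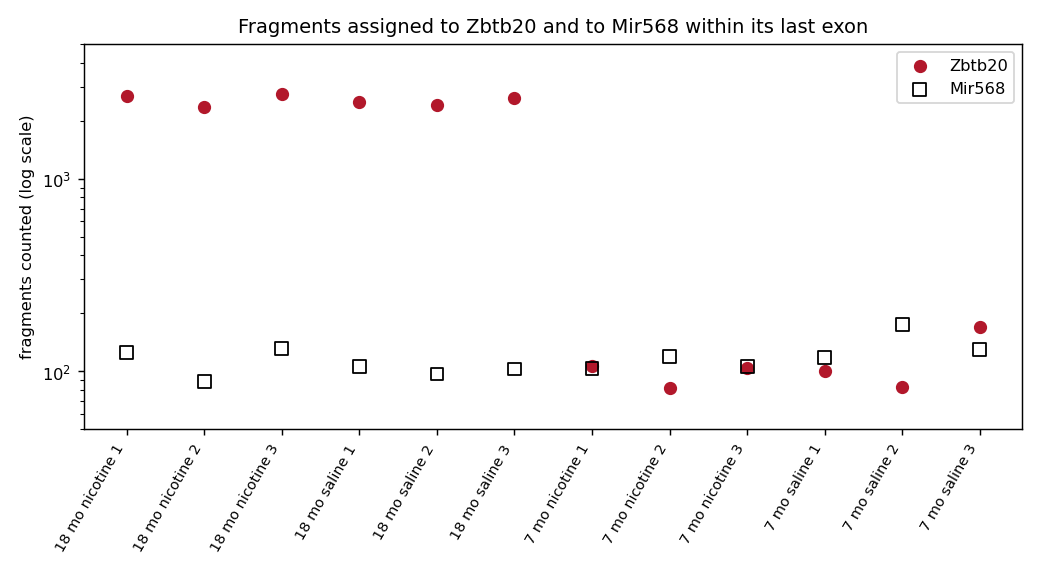
Raw counts of Zbtb20 and of Mir568 in each library, on a log axis, with the 18-month libraries to the left of the 7-month libraries. Mir568 lies between 89 and 176 counts throughout, whereas Zbtb20 lies at 2346 to 2736 counts at 18 months and at 82 to 171 at 7 months.

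Zbtb20 has the longest transcript of the 8 genes. Bcl11b (8111 nt) and Prox1 (7913 nt) came next in length and had the next largest age differences. Neurod2 (3142 nt), Emx2 (2916 nt), Lhx2 (2840 nt), Neurod1 (2729 nt) and Neurod6 (2150 nt) had log2 age differences between -0.49 and 0.29. Over 16200 genes the Spearman correlation of transcript length with the age difference was 0.478 under nicotine and 0.424 under saline. This describes genes of the same libraries, which are not independent, and none is given over the 8 members, whose age differences took part in the choice.

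Genes grouped by length showed where the members sat. Those of 2000 to 3000 nt had a median log2 age difference of -0.34 under nicotine and -0.27 under saline, and those of 5000 to 10000 nt 0.51 under nicotine and 0.31 under saline. The 15 genes of 20000 nt or more had medians of 1.36 under nicotine and 1.14 under saline, with Zbtb20 highest under saline. Under nicotine Grin2b, an NMDA receptor subunit of 24060 nt, was highest at 5.52, and it stood at 3.40 under saline. Syne1, longer than Zbtb20 at 27908 nt, had 1.36 under nicotine and 0.87 under saline. With offsets for transcript length and GC content, Zbtb20 was higher at 18 months by a log2 value of 3.31 under nicotine and 3.42 under saline. The same offsets gave Prox1 0.99 and Bcl11b 0.51 under nicotine, and turned Neurod2, Neurod6 and Lhx2 under nicotine to 0.26, 0.09 and 0.10. In 7-month saline library 2, with its larger share of long transcripts, Zbtb20 had 83 counts, or 3.22 CPM. The part of transcript length in the Zbtb20 age difference was not tested beyond these offsets.

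**Figure D3:**
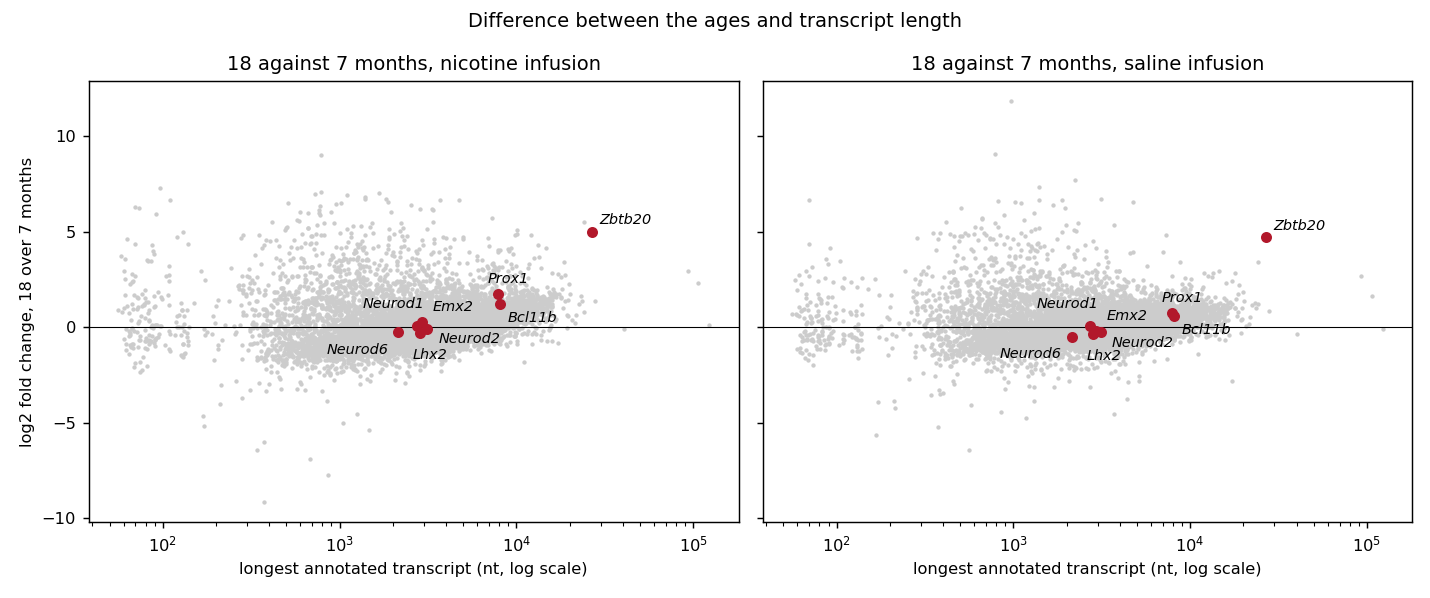
Log2 difference of 18 months over 7 months against the length of the longest transcript (log axis), for each gene tested, with nicotine on the left and saline on the right; the 8 members are named. Longer transcripts lie higher in general, and Zbtb20, at 26901 nt, lies at 5.0 under nicotine and 4.71 under saline.

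Per length, levels could be set against each other between genes. Zbtb20 had the lowest CPM per kilobase of the 8 genes at every age and infusion, 4.37 ± 0.388 at 18 months under nicotine and 4.20 ± 0.200 under saline (SD, n = 3). In 7-month libraries it had 0.137 ± 0.0138 under nicotine and 0.161 ± 0.0662 under saline. Dividing by its next longest transcript instead gave 38.1 under nicotine and 36.6 under saline at 18 months. Its place among the genes at 18 months thus depends on which transcript was made. At 7 months the same division gave 1.19 under nicotine and 1.4 under saline, still the lowest of the 8 genes. Neurod6 was the most abundant per kilobase at 18 months, at 72.2 ± 3.88 under nicotine and 70.7 ± 12.9 under saline, and Neurod2 came next, at 59.9 ± 7.55 under nicotine and 52.0 ± 4.59 under saline. Bcl11b and Lhx2 followed, and under saline they differed by less than their spread, Bcl11b at 22.5 ± 1.82 and Lhx2 at 21.6 ± 0.895. Below them at 18 months came Prox1, at 13.7 ± 4.39 under nicotine and 10.9 ± 0.955 under saline, then Neurod1 and Emx2. At 7 months Lhx2, at 27.9 ± 2.75 under nicotine and 28.0 ± 0.172 under saline, lay above Bcl11b, at 11.6 ± 0.970 under nicotine and 14.8 ± 3.25 under saline. At that age Prox1, Neurod1 and Emx2 had 4.11 ± 0.872, 6.54 ± 0.699 and 4.95 ± 0.221 under nicotine, where Neurod1 lay above both by more than their spread. Under saline they had 6.41 ± 2.95, 6.50 ± 1.45 and 6.07 ± 0.433 and did not differ beyond their spread.

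Genes whose pattern was most like Zbtb20 over the 12 libraries were found by the root mean square of the difference in centred log2 CPM. This search, used for every member, covered 12657 genes with a mean log2 CPM of at least 1. It left out predicted names, such as Gm and Rik symbols. Nearest to Zbtb20 were the pseudogene Oaz1-ps (0.337), Malat1 (0.428), Cdr1 (0.573), Muc6 (0.820) and Grin2a (0.860). Oaz1-ps and Muc6 reached the cut through their 18-month libraries. At 7 months Oaz1-ps averaged 0.467 CPM under nicotine and 0.419 CPM under saline, and Muc6 1.51 and 1.62 CPM. At 18 months Oaz1-ps averaged 13.0 CPM under nicotine and 13.1 CPM under saline, and Muc6 16.6 and 17.6 CPM. Malat1, a nuclear long noncoding RNA, averaged 5835 ± 213 CPM under nicotine and 5594 ± 624 CPM under saline at 18 months. At 7 months it averaged 305 ± 25.5 CPM under nicotine and 362 ± 23.8 CPM under saline. The likeness follows mainly from the gap between ages that all these genes have in the same libraries.

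Prox1, the granule cell factor, had 112, 71.5 and 141 CPM in the 18-month nicotine libraries, against 24.8, 38.2 and 34.5 CPM in the 7-month nicotine libraries. Under saline it had 80.2, 94.6 and 83.5 CPM at 18 months, against 33.8, 77.4 and 41.0 CPM at 7 months. Within each infusion the ages did not overlap. Across infusions they did, since 7-month saline library 2, at 77.4 CPM, lay above 18-month nicotine library 2, at 71.5 CPM. The log2 age difference was 1.73 under nicotine and 0.76 under saline. Without that library the saline value was 1.23. The pattern nearest to Prox1 was that of Sema5a, at 0.172, followed by Hectd2 at 0.173.

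Bcl11b had 228, 194 and 243 CPM in the 18-month nicotine libraries, against 87.7, 103 and 92.0 CPM in the 7-month nicotine libraries. Under saline it had 198, 168 and 182 CPM at 18 months, against 92.3, 145 and 124 CPM at 7 months. The ages did not overlap within or across infusions, and saline library 2 was the highest 7-month library, as for Prox1. Its log2 age difference was 1.23 under nicotine and 0.60 under saline. Atp2b1, a plasma membrane calcium pump, and Adcy1 were most like it, at 0.0791 and 0.0985.

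The NeuroD genes varied much less. Neurod1, known for the survival of young granule neurons, had 20.0, 14.4 and 20.8 CPM in 18-month nicotine libraries and 15.9, 17.9 and 19.7 CPM in 7-month nicotine libraries. In saline libraries it had 18.8, 16.6 and 19.5 CPM at 18 months and 13.6, 21.5 and 18.1 CPM at 7 months. The 4 groups overlapped, and the log2 age difference was 0.05 under each infusion.

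Neurod2 had 193, 162 and 209 CPM in the 18-month nicotine libraries and 169, 232 and 201 CPM in the 7-month nicotine libraries. Its saline libraries had 178, 149 and 163 CPM at 18 months and 196, 159 and 230 CPM at 7 months. Its ages overlapped under both infusions, with log2 age differences of -0.09 under nicotine and -0.26 under saline. Neurod6, a marker of pyramidal neurons, had 153, 148 and 165 CPM in the 18-month nicotine libraries and 195, 191 and 171 CPM in the 7-month nicotine libraries. Under saline it had 184, 139 and 133 CPM at 18 months and 200, 196 and 245 CPM at 7 months. Neurod6 was thus lower in every 18-month library than in the 7-month library of the same infusion, by -0.26 under nicotine and -0.49 under saline on the log2 scale. Camkk1 and Ism1 for Neurod2, and Chn1 and Rap1a for Neurod6, were the nearest patterns.

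Emx2 had 16.9, 17.9 and 18.3 CPM in the 18-month nicotine libraries and 13.7, 14.9 and 14.7 CPM in the 7-month nicotine libraries. In saline libraries it had 15.9, 15.1 and 15.3 CPM at 18 months and 17.0, 19.1 and 17.0 CPM at 7 months. It was thus higher at 18 months under nicotine, by a log2 difference of 0.29, and lower at 18 months under saline, by -0.20. Lhx2 had 62.7, 63.8 and 63.5 CPM under nicotine and 62.3, 58.4 and 63.1 CPM under saline at 18 months. At 7 months it had 70.3, 84.9 and 82.3 CPM under nicotine and 80.1, 79.2 and 79.4 CPM under saline. All 18-month Lhx2 values lay below all 7-month values, by log2 differences of -0.32 under nicotine and -0.38 under saline. Anapc4 and Sumo2 followed Lhx2 most closely, and Agfg1 and Ptpn9 followed Emx2.

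The question put to nicotine was whether it altered these genes in early and late disease. At 18 months 0 of the 8 genes were called by edgeR's quasi-likelihood test at adjusted p under 0.05, where 0.044% of 18196 genes were called, and 2 had an unadjusted p under 0.05, as did 6.73% of all genes. At 7 months 0 of 8 were called, against 0.0114% of 17596 genes, and 1 had an unadjusted p under 0.05, as did 6.5% of all genes. DESeq2 also called 0 of 8 at each age. The median log2 change of the 8 genes was 0.11 at 18 months, with 7 above 0, and -0.23 at 7 months, with 1 above 0. Over all genes the medians were -0.005 at 18 months and -0.008 at 7 months, and 48.1% and 48.7% of them lay above 0. A difference that misses the threshold with 3 libraries a group does not show that the genes were unaffected.

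Bcl11b had the smallest p at 18 months. It averaged 222 ± 25.1 CPM under nicotine and 183 ± 14.8 CPM under saline (log2 change 0.27, SE 0.09, edgeR adjusted p = 0.613). The groups overlapped, since the lowest nicotine library had 194 CPM and the highest saline library 198 CPM. In 7-month mice it averaged 94.2 ± 7.87 CPM under nicotine and 120 ± 26.3 CPM under saline (log2 change -0.37, SE 0.18, edgeR adjusted p = 0.656). Prox1 averaged 108 ± 34.7 CPM under nicotine and 86.1 ± 7.56 CPM under saline at 18 months (log2 change 0.31, SE 0.20, edgeR adjusted p = 0.851). In 7-month mice it averaged 32.5 ± 6.90 CPM under nicotine and 50.7 ± 23.4 CPM under saline (log2 change -0.66, SE 0.32, edgeR adjusted p = 0.656). Both genes had overlapping groups at 7 months, where saline library 2 was the highest of all. That library also had the largest 7-month share of counts in transcripts over 5000 nt, 32.5%, and the part of this share was not tested. Without that library the 7-month log2 change was -0.20 for Prox1 and -0.20 for Bcl11b. Nicotine library 1, with its choroid plexus and pituitary transcripts, had the least Prox1, Bcl11b, Emx2 and Lhx2 at 7 months; without both libraries, a choice made after seeing the data, Prox1 had -0.03, Bcl11b -0.14 and Emx2 -0.19.

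Emx2 was the only member whose groups did not overlap at both ages. At 18 months it averaged 17.7 ± 0.740 CPM under nicotine and 15.4 ± 0.410 CPM under saline (log2 change 0.19, SE 0.07, edgeR adjusted p = 0.693). At 7 months it averaged 14.4 ± 0.643 CPM under nicotine and 17.7 ± 1.26 CPM under saline (log2 change -0.31, SE 0.12, edgeR adjusted p = 0.656). Groups did not overlap for 1 of the 8 genes at 18 months and for 2 at 7 months, Emx2 and Neurod6, against 11.8% of all genes tested at 18 months and 17.4% at 7 months. Groups apart at both ages and in opposite directions were seen in 1.12% of genes. The antisense transcript Emx2os, looked at after these values were seen, had overlapping groups at both ages, and without a stated strand its reads cannot be told apart from those of Emx2 where they overlap.

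Zbtb20 itself averaged 118 ± 10.5 CPM under nicotine and 113 ± 5.39 CPM under saline at 18 months (log2 change 0.04, SE 0.07, edgeR adjusted p = 0.952). At 7 months it averaged 3.68 ± 0.371 CPM under nicotine and 4.33 ± 1.78 CPM under saline (log2 change -0.25, SE 0.29, edgeR adjusted p = 0.741). Its groups overlapped at both ages. Without 7-month saline library 3, which held the highest value, the 7-month direction turned, to 0.13. Neurod6 at 7 months averaged 186 ± 13.0 CPM under nicotine and 214 ± 27.2 CPM under saline (log2 change -0.21, SE 0.12, edgeR adjusted p = 0.656). Neurod1, Neurod2 and Lhx2 had 18-month log2 changes of -0.01, 0.19 and 0.03, and 7-month changes of -0.01, 0.03 and -0.02, with edgeR adjusted p of 0.765 or more.

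**Figure D4:**
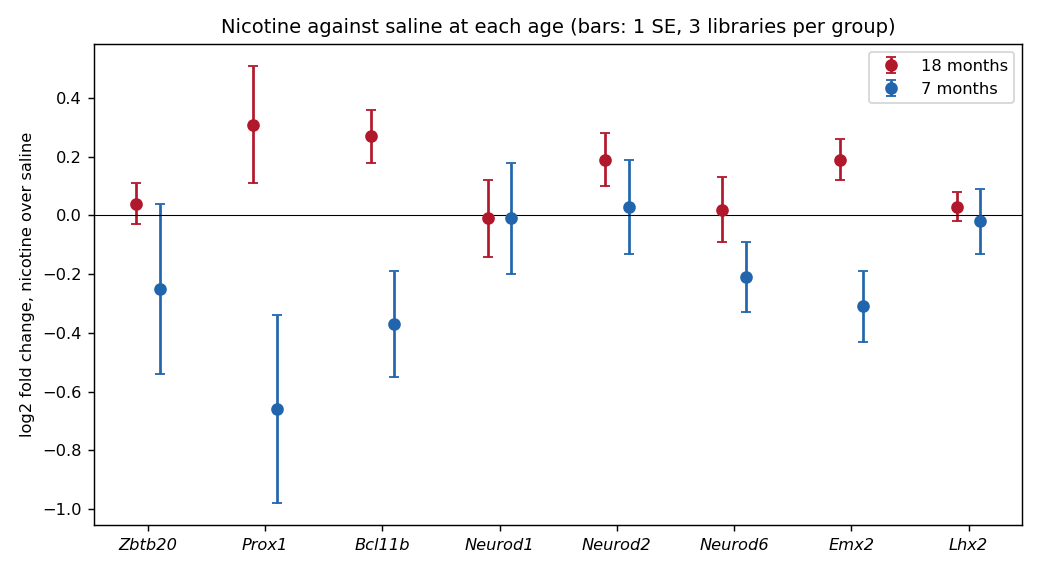
Log2 change of nicotine over saline for the 8 genes at 18 months and at 7 months, with bars of 1 standard error from edgeR. Prox1, Bcl11b and Emx2 lie above 0 at 18 months and below 0 at 7 months, and Zbtb20, Neurod1, Neurod6 and Lhx2 lie within 0.04 of 0 at 18 months.

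The difference between the nicotine effects, 18 months minus 7 months, was tested in 1 fit over all 12 libraries. It was called for 0 of 8 members and for 0.00522% of 19171 genes, and 3 members had an unadjusted p under 0.05, as did 7.85% of all genes. Those were Emx2 at a log2 value of 0.49 (SE 0.13, edgeR adjusted p = 0.526), Bcl11b at 0.63 (SE 0.21, edgeR adjusted p = 0.601) and Prox1 at 0.97 (SE 0.42, edgeR adjusted p = 0.623). Without 7-month saline library 2 these were 0.41, 0.46 and 0.51. Averaged over both ages, nicotine changed 0 of 8 members, against 0.0365% of all genes, and 0 had an unadjusted p under 0.05, where 6.86% of all genes did. DESeq2 called 0 of 8 in both.

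Prox1 can be set against the cells that carry it. The summed level of 14 dentate granule cell genes was 752, 510 and 886 CPM in 18-month nicotine libraries and 574, 575 and 573 CPM in 18-month saline libraries. The 18-month nicotine libraries held the same order for Prox1 as for this sum, with library 2 lowest and library 3 highest. At 7 months the sum was 472, 519 and 505 CPM under nicotine and 555, 553 and 600 CPM under saline. Among the 7-month saline libraries, library 2 had the most Prox1, at 77.4 CPM. Its sum of 553 CPM was close to the 555 CPM of library 1, but single genes in the sum moved in opposite directions. C1ql2 (2000 nt) had 48.2 CPM in library 2 and 95.6 CPM in library 1, while Rfx3 (9146 nt) had 81.7 and 50.7 CPM. Library 2 also had 32.5% of its counts in transcripts over 5000 nt, against 24.1% in library 1 and 23.7% in library 3. Prox1 has 7913 nt, and the part of this share in its level or in the sum was not tested. All 14 genes lay above 0 for nicotine at 18 months (median log2 change 0.22), as did 48.1% of all genes. At 7 months 2 of 14 did (median -0.25), as did 48.7% of all genes. EdgeR called 0 of the 14 at either age. Genes of the same libraries are not independent, and 18-month nicotine library 2, at 510 CPM, lay below every 18-month saline library. In bulk tissue fewer cells of a type and less RNA per cell cannot be told apart, and the share of dentate gyrus in each dissection was not tested.

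**Figure D5:**
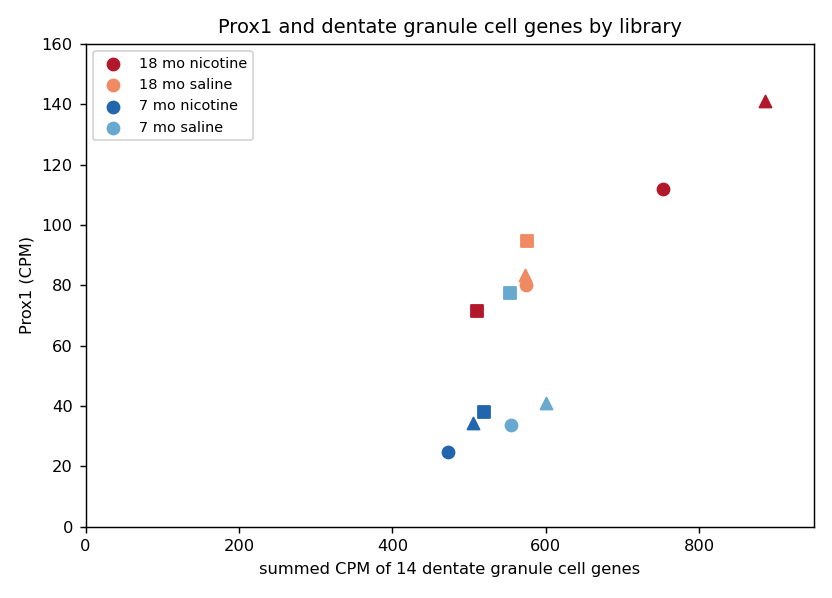
Prox1 level against the summed level of 14 dentate granule cell genes, both in CPM, with 1 point for each library. At 18 months the nicotine libraries spread from 510 to 886 CPM on the horizontal axis and from 71.5 to 141 CPM of Prox1, whereas the saline libraries sit at 573 to 575 CPM.

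Other genes of the same families were read from lists taken by function, chosen with earlier results of these data known. Age cannot be told apart from the making of the tables, so their calls with age are a description. Over genes with a known length the age difference rose with transcript length, so lengths of named genes are given. The part of length in these lists was not tested. Their counts with age stand beside the 29.5% of all genes called higher and 29.8% called lower under nicotine, and the 21.5% higher and 24.6% lower under saline, and nothing particular to a list is read from them. Of 23 BTB zinc finger factors, relatives of Zbtb20, 17 were higher and 3 lower at 18 months under nicotine, and 10 higher and 0 lower under saline (edgeR). Their median log2 age difference was 0.52 under nicotine and 0.28 under saline, against -0.03 for all genes. Zbtb37 (18814 nt) reached 2.71 under nicotine and 2.22 under saline. Zbtb16 (5114 nt), also called PLZF, had 1.13 under nicotine and 1.11 under saline. Both genes lay below the values of Zbtb20. With nicotine 0 of 23 were called at either age.

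Zbtb20 is known to bind genes of the isocortex in the mouse. Of 11 such genes 8 were higher and 0 lower at 18 months under nicotine, and 4 higher and 1 lower under saline (edgeR). Rorb (9293 nt), a layer 4 nuclear receptor, had a log2 age difference of 1.27 under nicotine and 0.47 under saline. Tbr1 (3977 nt), a deep-layer T-box factor, had -0.36 under saline. Nicotine called 0 of 11 at either age. At 18 months 9 of 11 lay above 0 (median log2 change 0.05), as did 48.1% of all genes. Tbr1 stood at 0.30 (SE 0.06, edgeR adjusted p = 0.278). At 7 months 1 of 11 lay above 0 (median -0.31), as did 48.7% of all genes. Rorb stood at -0.70 (SE 0.15, edgeR adjusted p = 0.633).

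NeuroD factors act among other basic helix-loop-helix factors and their inhibitors. Of 13 such genes tested, 2 were higher and 9 lower at 18 months under nicotine, and 1 higher and 5 lower under saline (edgeR). Id2 (1969 nt), an inhibitor of such factors, had a log2 age difference of -1.19 under nicotine and -0.84 under saline. The oligodendrocyte factors Olig1 (2162 nt) and Olig2 (2530 nt) were lower under both infusions. Their log2 differences were -0.90 and -0.61 under nicotine and -0.75 and -0.53 under saline. Tcf4 (8577 nt), an E-protein that pairs with NeuroD factors, was higher by 1.17 under nicotine and by 0.77 under saline. Of 12 LIM factors and cofactors, partners of Lhx2, 1 was higher and 4 lower at 18 months under each infusion. Among 25 other forebrain factors 11 were higher and 4 lower under nicotine, and 8 higher and 4 lower under saline. Nfia (9526 nt), a nuclear factor I gene, had a log2 age difference of 0.88 under nicotine and 0.77 under saline. Nfix (5476 nt) had 1.10 under nicotine and 0.82 under saline. None of these lists had a gene called for nicotine by edgeR at 18 months or at 7 months.

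Since Zbtb20 is also an astrocyte gene, the astrocyte list was read beside it. The sum of its 12 genes was 6192 to 6877 CPM at 18 months and 4403 to 5320 CPM at 7 months. Such a sum weighs abundant genes most. Under saline Slc1a2, of 11595 nt, averaged 2836 CPM at 18 months and 1961 CPM at 7 months, and Gfap 1606 and 706 CPM. Aldoc ran the other way, at 618 CPM at 18 months and 891 CPM at 7 months. The part of astrocyte content in the Zbtb20 difference was not tested. With age 5 of the 12 were higher and 5 lower under nicotine, and 6 higher and 4 lower under saline (edgeR). Gfap (2648 nt) had a log2 age difference of 1.18 under saline. Gjb6 (2105 nt) had -0.91 under nicotine and -0.73 under saline. Markers of immature granule neurons, where Neurod1 acts, included 2 higher and 4 lower of 8 under nicotine and 0 higher and 3 lower under saline.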

How the data were processed

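RNA from the hippocampus of APP/PS1 mice was measured in 12 libraries as raw fragment counts per gene, deposited by the authors in 1 table per age and not normalized. Per the submitters' processing notes, TopHat was used with GRCm38. The counting tool, annotation and strand setting are not given in the sources used here. The labels' protocols describe a small RNA kit, while the counts cover mRNAs. The members and gene lists were chosen with earlier results of these data known.

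Genes with the same name in both tables (44760 of 44788 and 44786) were joined, and every deposited column was mapped. Nicotine was tested within each age by the quasi-likelihood F-test of edgeR 4.0.16 (R 4.3.3), after filterByExpr and TMM scaling, with p-values adjusted by Benjamini-Hochberg over all genes and a threshold of 0.05. The average over ages, the difference between ages and the age contrasts came from 1 fit of 4 group means to 12 libraries. The SE is the absolute log2 change over the square root of F. With 3 libraries a group, the smallest two-sided p of an exact permutation test is 0.1, and none was run. Named genes were the 8 members, the genes most like each in pattern, and up to 4 genes with the smallest p of each list described. Mir568, Emx2os, Rn7sk, Slc1a2, Aldoc and the longest genes were chosen after values were seen. Coordinates and transcript lengths are from GENCODE M21 on GRCm38 (30971 of the joined genes had a length). Counts carry no molecular identifiers, so statements on depth cover counting error alone. Alternatives were RLE size factors, no low-count filter, DESeq2 1.42.0, a replicate block, transcript length and GC offsets (splines with 4 degrees of freedom), 1 fit of 12 libraries for each age, leaving out each library, and a fit without the first library of both 7-month groups (their descriptions carry another prefix). Fits without libraries that stood apart were chosen after seeing the data. The fits were tested on simulated data. Tables were handled in Python 3.11.15 with pandas 2.3.3 and numpy 2.4.6, and plots drawn with matplotlib 3.10.9.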

Additional observations from a re-analysis of the deposited data

Results flagged for a closer look

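Emx2 was flagged because its estimated nicotine effect ran in opposite directions at 18 and 7 months. It had 16.9, 17.9 and 18.3 CPM under nicotine against 15.9, 15.1 and 15.3 CPM under saline at 18 months, and 13.7, 14.9 and 14.7 CPM under nicotine against 17.0, 19.1 and 17.0 CPM under saline at 7 months. All 3 nicotine libraries were therefore higher than all 3 saline libraries at 18 months and lower at 7 months. Groups apart at both ages in opposite directions were seen in 214 of 19171 genes tested, or 1.12%. The difference of the effects was 0.49 on the log2 scale (SE 0.13) and did not pass over all genes tested (edgeR adjusted p = 0.526).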

How the results depend on the processing

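No nicotine value of a single member was called under any alternative (lowest adjusted p 0.146); of 488 values, 437 kept their direction and 51 turned. The cause of these changes was not tested. Genes called at 7 months (2 in the report's fit) numbered 6 without the low-count filter, 81 by DESeq2, 1 with the replicate block, 9 in a fit of all 12 libraries, 0 without both first libraries, 5 without both libraries numbered 3 and 1 without saline library 2 and nicotine library 1, and 0 to 2 with single libraries left out. At 18 months (8) they numbered 35 without the filter, 57 by DESeq2, 0 over all 12 libraries and 5 to 21 with single libraries left out. For the average (7) they numbered 15 without the filter, 80 by DESeq2, 3 with the block, 11 with the offsets and 2 to 21 with single libraries left out. For the difference between ages (1) they numbered 37 by DESeq2, 0 with the block and 0 to 3 with single libraries left out.

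Same-number libraries deviated from their group means with correlations of -0.0976 to 0.0833, so numbers were not taken as pairs. The replicate block moved counts of calls as given above, called no member and turned Neurod1 at 7 months to 0.01. With length and GC offsets the Zbtb20 log2 age difference was 3.31 under nicotine and 3.42 under saline; it was 4.55 to 5.10 under saline with single libraries left out. The offsets turned the nicotine effect at 7 months for Zbtb20 (0.06), Neurod1 (0.01) and Neurod2 (-0.11), that averaged over ages for Zbtb20 (0.08), Neurod1 (-0.00), Bcl11b (0.05) and Lhx2 (-0.06), and the difference between ages for Zbtb20 (-0.11). They turned the age difference under nicotine for Neurod2 (0.26), Neurod6 (0.09) and Lhx2 (0.10). Neurod1 turned without the filter, to 0.01 at 18 months and 0.00 at 7 months, and over all 12 libraries, to 0.01 at both ages. At 7 months Lhx2 turned without both first libraries (0.06), Zbtb20 without both libraries numbered 3 (0.06), and Neurod1 (0.25) and Lhx2 (0.07) without saline library 2 and nicotine library 1.

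With single libraries left out, these members crossed 0. At 18 months Neurod1 ran from -0.10 to 0.15, Zbtb20 from -0.03 to 0.09 and Neurod6 from -0.07 to 0.17. At 7 months Neurod1 ran from -0.18 to 0.17, Lhx2 from -0.07 to 0.06, Neurod2 from -0.09 to 0.16 and Zbtb20 from -0.41 to 0.13. For the average Lhx2 ran from -0.01 to 0.06, Neurod1 from -0.08 to 0.09, Prox1 from -0.27 to 0.06, Bcl11b from -0.12 to 0.04 and Zbtb20 from -0.17 to 0.11. For the difference between ages Lhx2 ran from -0.02 to 0.11, Neurod1 from -0.18 to 0.16, Zbtb20 from -0.13 to 0.45 and Neurod2 from -0.01 to 0.28. For age Neurod1 ran from -0.07 to 0.19 under nicotine and -0.12 to 0.24 under saline, and Neurod2 from -0.21 to 0.02 under nicotine.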
